A study of Homo sapiens with 21 samples.

Results

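The genes that encode the subunits of the proteasome, its assembly chaperones, activators and inhibitor were followed through HNRNPK PAR-CLIP clusters from MDA-MB-231 cells. Members were all genes whose deposited name was PSM, a letter from A to G and a number. This rule matched 48 genes in the annotation, and 45 of them had at least 1 cluster, against 18322 genes in the whole series. They held 1737 of 778762 clusters. PSMB8, PSMB9 and PSMB11 had no cluster in any library.

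MDA-MB-231 is an established triple-negative breast cancer line. PAR-CLIP marks the places where a protein touches RNA in living cells, because a crosslinked 4-thiouridine (4SU) turns up in the sequenced reads as a T-to-C change. Parental and KRT19 KO cells were given 4SU, irradiated with UV light and fractionated, and RNA was recovered with an antibody labelled anti-HNRNPK/J after digestion with RNase T1. The 4 libraries were 1 each from parental cytoplasm, KRT19 KO cytoplasm, parental nucleus and KRT19 KO nucleus, and 17 RNA-seq samples of the series were not analysed here. Both cell lines received the same labelling and crosslinking, the KO was made with CRISPR/Cas9, and how many clones it represents was not given in the sources used here. With 1 library in each condition no difference has a replicate check, no test between conditions was run, and the 95% intervals below cover counting error of reads only, since copies made by PCR are not independent molecules. Reads on a gene depend on how much of its RNA was in the fraction and on how much of that RNA HNRNPK contacted, and the 2 cannot be told apart here.

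The proteasome degrades proteins that carry ubiquitin chains. Its core particle is a barrel of alpha rings, which gate the entry, and beta rings, which hold the proteolytic sites. The regulatory particle caps the barrel with a ring of ATPases that unfold substrates and with non-ATPase subunits that bind and remove ubiquitin. Chaperones build both particles, and other activators or an inhibitor can bind the core. HNRNPK is a predominantly nuclear protein that binds C-rich and U-rich RNA and also acts on mRNAs in the cytoplasm.

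The RNA under the strongest clusters is shown first, as the 30 nt that surround the position of highest signal in the site with the most reads of each functional group except the alpha ring, followed by 6 further sites that the comparisons below turn on and that were chosen after their values were seen. The letters are those of the sense strand of GRCh37 (hg19), with T for U, and capitals mark matches to the C-rich consensus [U/A][U/C/A]CCC.
PSMD12: taataaaagcagtatatacatatttccttt
PSME3: ctcttctatttccTTCCCtaaTACCCCaca
PSMB2: ttgcccttaaacttaaatttttaaattaat
PSMG2: ttttataccttaTACCCaaaacacttacta
PSMC4: tcccaaaacctcaTTCCCttttttctttac
PSMF1: caTACCCataatttacatacctgtttaaag
PSMB10: ctggccgctaccactttgtgcctggaacca
PSMC2: tcctatcttctaccacaatTACCCCTTCCC
PSMC4, second site: TTCCCtccaccacaccactcaggggctggg
PSME3, nuclear site: attagctaacaTACCCtccctctccacaac
PSMG3: cctttttTTCCCCtttctttttaacctaaa
PSMD10: tatTACCCCctcaccaacactaaattatcc
PSMD14: cctcccTTCCCaaatgggcctggctcaaag

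The windows in 3'UTRs were PSMD12 at chr17:65336611-65336640 on the minus strand, PSME3 at chr17:40993786-40993815 (plus), PSMB2 at chr1:36068476-36068505 (minus), PSMG2 at chr18:12725542-12725571 (plus), PSMC4 at chr19:40487278-40487307 (plus), PSMF1 at chr20:1148012-1148041 (plus) and PSMC2 at chr7:103009414-103009443 (plus). The second PSMC4 site, chr19:40487221-40487250 (plus), and the nuclear PSME3 site, chr17:40994280-40994309 (plus), were also in 3'UTRs. Introns held the windows of PSMD10 at chrX:107329956-107329985 (minus) and PSMD14 at chr2:162178504-162178533 (plus). The PSMG3 window at chr7:1609003-1609032 (minus) was annotated to the 5'UTR, and the PSMB10 window at chr16:67968543-67968572 (minus) to coding sequence. The PSMD12, PSMB2 and PSMB10 windows held no match to the consensus, while the PSME3, PSMC2, PSMG3 and PSMD10 windows held matches that overlapped or followed each other.

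Reads in clusters numbered from 3252800 to 6216226 per library, over 177530 to 201726 clusters, and all 1737 member clusters matched the GRCh37 sequence at their positions. The nuclear libraries stood apart from the cytoplasmic ones in reads per unique read, with 5.00 and 5.26 in parental and KRT19 KO nucleus against 3.24 and 2.19 in the cytoplasms. Whether reads of the same sequence came from separate molecules was not tested. Clusters resting on 1 unique read made up 104 of 443 member clusters in parental cytoplasm, 37 of 409 in KRT19 KO cytoplasm, 145 of 438 in parental nucleus and 146 of 447 in KRT19 KO nucleus. Of the genes taken to mark MDA-MB-231 cells, VIM, CD44, EGFR and AXL held 725 to 22691 reads, whereas ESR1 held 239, CDH1 6 and PGR none. KRT19 itself had 7 and 5 reads in parental and KRT19 KO cytoplasm and no listed cluster in either nucleus, which cannot check the genotype.

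HNRNPK clusters lay on 45 of the 48 proteasome genes, and the same share over all annotated genes was not computed. Of the 45 genes, 36 had a cluster in all 4 libraries, 5 in 3 libraries, 1 in 2 and 3 in a single library, while 9500 of the 18322 genes of the series (51.9%) were found in all 4. From here on, 4 values in a row are for parental cytoplasm, KRT19 KO cytoplasm, parental nucleus and KRT19 KO nucleus. The number of members with a cluster was 40, 43, 41 and 40 of the 45. Over all genes it was 13388, 12928, 13517 and 13581 of the 18322. Their clusters made up 0.220, 0.230, 0.219 and 0.224% of each library's clusters, a nearly constant share. Their reads varied more, with 17751, 22237, 9695 and 9008 reads, or 3197, 3577, 2741 and 2769 reads for each 1000000 cluster reads of the library (RPM). The median member had 7, 5, 7 and 7 clusters, against 5, 5, 5 and 4 for all genes.

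The non-ATPase subunits of the regulatory particle held the largest part of the reads, 39.6% of all reads on members over the 4 libraries. The activators followed with 17.7%, the beta ring with 10.6%, the assembly chaperones with 10.4%, the ATPases with 9.05%, the alpha ring with 7.63% and the inhibitor PSMF1 with 5.04%. These totals were not divided by gene length, so they rank where the reads lay and not a level per length. The inducible and tissue-specific beta subunits, which replace constitutive ones in the immunoproteasome and thymoproteasome, contributed 5 reads in 1 PSMB10 cluster of the parental cytoplasm and nothing else, and that cluster also lay on the locus ENSG00000261884. The interferon-inducible activator genes PSME1 and PSME2 were nearly as bare, with 68 reads in KRT19 KO cytoplasm alone for PSME1 and 30 in parental nucleus alone for PSME2.

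**Figure D1:**
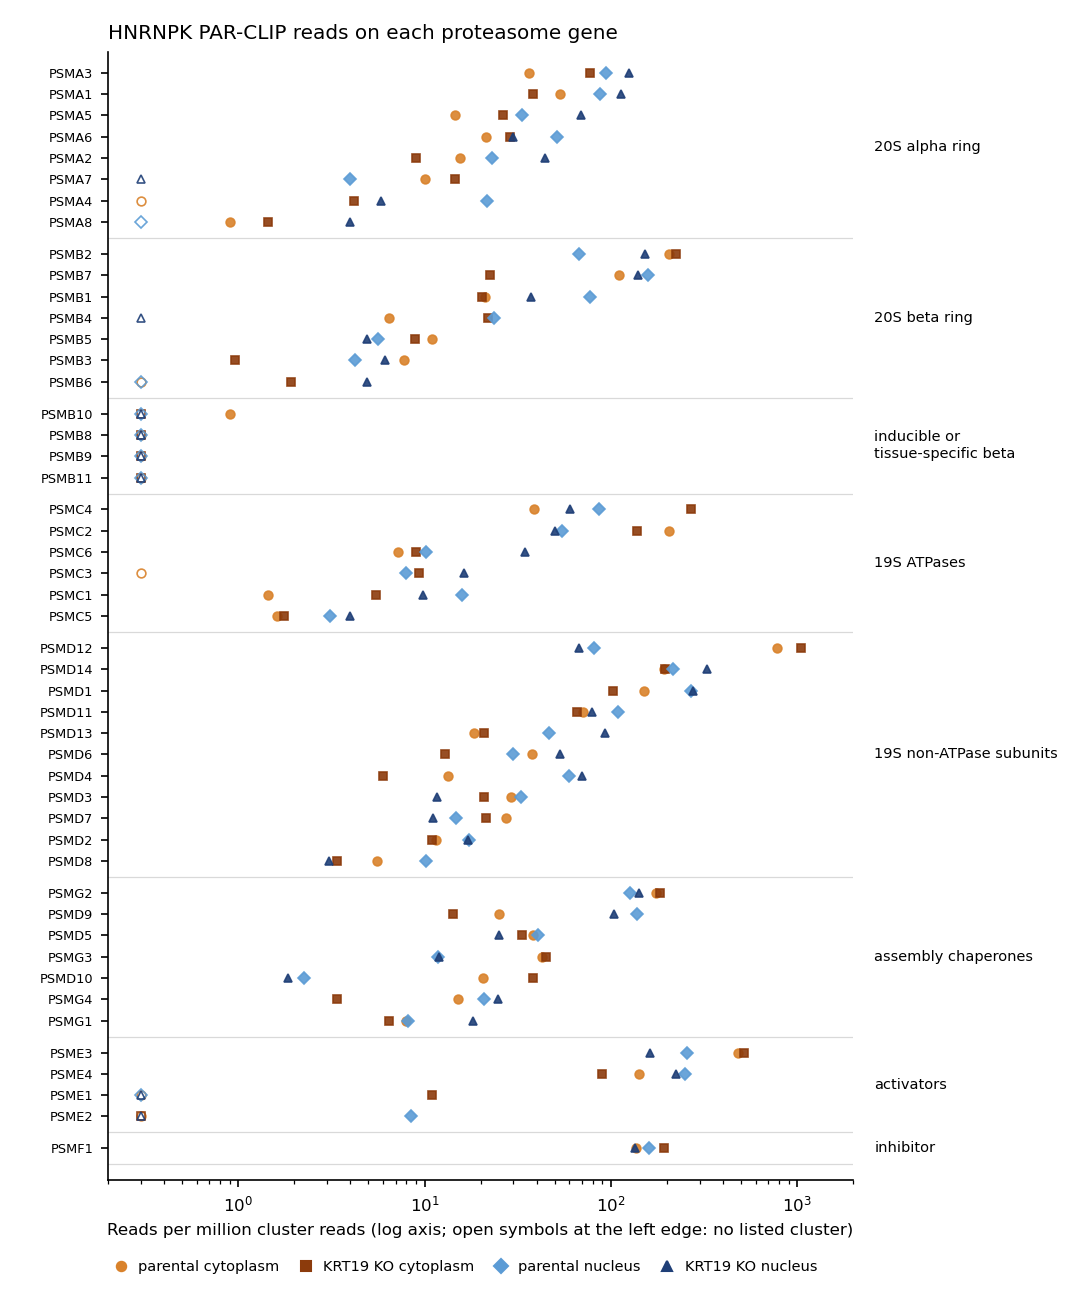
RPM (log axis) on each of the 48 proteasome genes, grouped by function and ordered by total reads; each symbol is 1 library and open symbols at the left edge mark a library without a listed cluster. PSMD12 in both cytoplasms, at 782 and 1049 RPM, lies furthest to the right, and PSMB8, PSMB9 and PSMB11 have open symbols only.

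The place of the clusters on the transcripts differed sharply between the fractions. Clusters in 3'UTRs were 13.1% of member clusters in parental cytoplasm and 19.6% in KRT19 KO cytoplasm, against 5.71% in parental nucleus and 6.94% in KRT19 KO nucleus. Over all genes these shares were 13.0, 20.4, 4.80 and 5.37%, close to those of the members. Weighted by reads, the members lay above other genes: 3'UTR clusters held 59.7, 72.0, 16.6 and 13.9% of member reads, and 37.8, 53.6, 6.42 and 6.89% of the reads of all genes. In the cytoplasms this excess rested on PSMD12 and PSME3. They held 4101 and 2673 of the 10606 member 3'UTR reads in parental cytoplasm. In KRT19 KO cytoplasm they held 6420 and 3191 of 16008. Introns held 34.6, 22.1, 76.7 and 80.6% of member reads, so intronic contacts made up most of the nuclear signal and a minority of the cytoplasmic signal.

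**Figure D2:**
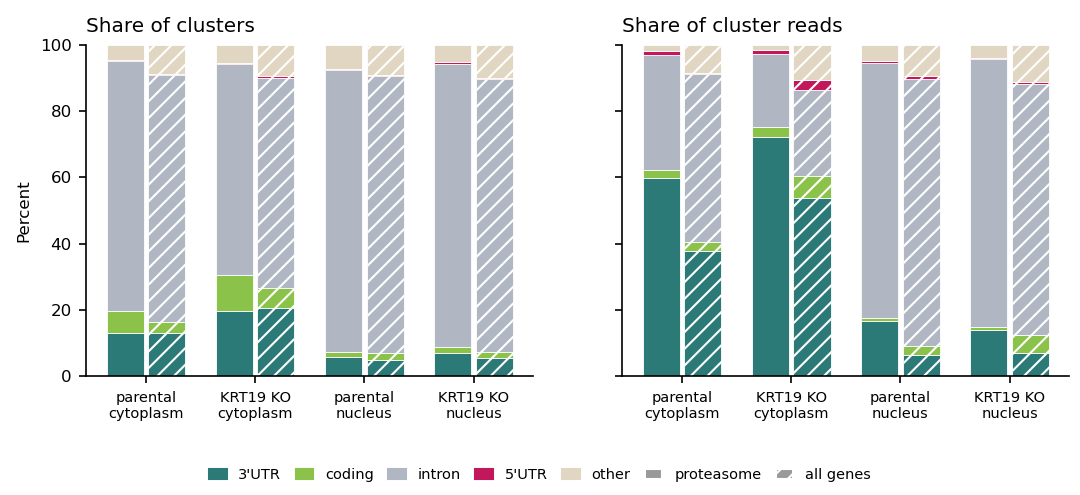
Percent of clusters (left) and of cluster reads (right) by annotation class in each library, for proteasome genes (plain bars) and all genes (hatched bars); each bar adds up to all clusters or reads of its set. The 3'UTR part of the plain bars on the right reaches 59.7 and 72.0% in the cytoplasms and 16.6 and 13.9% in the nuclei.

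Individual genes fell into distinct types. In 10 genes over 50% of the reads lay in 3'UTR clusters, in 27 over 50% lay in introns, and 8 had neither. The 5 genes with the most 3'UTR reads held 82.2% of the 29475 such reads, so the 3'UTR signal of the group was that of a few mRNAs. Merging overlapping clusters of the 4 libraries gave 1183 sites, of which 821 were found in 1 library, 214 in 2, 109 in 3 and 39 in all 4. The 10 sites with the most reads held 40.3% of all member reads. Among 115 3'UTR sites, 9 were in all 4 libraries, 15 were in both cytoplasms and neither nucleus, and 2 in both nuclei and neither cytoplasm. Sites were not merged for all genes, so these counts have no background. The recurrence of clusters is set beside that of all genes further below.

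PSMD12, a scaffold subunit of the lid of the regulatory particle, carried more reads than any other member. It had 4341, 6522, 288 and 219 reads, or 24.5 and 29.3% of all member reads in the cytoplasms and 2.97 and 2.43% in the nuclei. Both cytoplasmic values were far above both nuclear ones, by 9.60-fold (8.52 to 10.9) in parental and 15.6-fold (13.6 to 17.9) in KRT19 KO cells, in RPM. Of its reads, 94.2% lay in the 3'UTR, which is 2927 nt long. The main site, chr17:65336598-65336672 and 324 nt past the stop codon, held 2730, 4846, 98 and 51 reads, and it is the A-rich and U-rich window printed above without a consensus match. A T-to-C change was read in 41.5% of its reads, and the share over all member reads was between 54.9 and 72.8% per library. Near the far end of the 3'UTR, 2687 nt past the stop codon, a second site behaved differently between the cell lines, with 746 reads in parental cytoplasm, 356 in KRT19 KO cytoplasm, 26 in parental nucleus and none listed in KRT19 KO nucleus. Another site, at 1411 nt, held 422 and 656 reads in the cytoplasms and no listed cluster in either nucleus.

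PSME3 encodes the activator known for acting on nuclear proteasomes, and its 3'UTR was bound in both fractions. It held 2688, 3217, 904 and 526 reads, of which 2673, 3191, 769 and 335 lay in the 3'UTR of 2182 nt. The main site, 211 nt past the stop codon, held 2266, 2605 and 503 reads in the first 3 libraries and had no listed cluster in KRT19 KO nucleus. In the nuclei a further site, 702 nt past the stop codon, held 114 and 195 reads in the nuclei and none listed in either cytoplasm. A site at 1345 nt was found in all 4 libraries, with 331, 471, 84 and 55 reads.

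Further mRNAs of the core and the ATPase ring were bound chiefly in their 3'UTRs. PSMB2, a beta ring subunit, held 1142, 1390, 240 and 496 reads, and 69.9% of them lay in the 3'UTR. Its main site, 387 nt past the stop codon of a 3'UTR of 3726 nt, held 729 and 985 reads in the cytoplasms, none listed in parental nucleus and 98 in KRT19 KO nucleus. A further 22 clusters with 1027 reads lay in the annotated PSMB2 3'UTR but carried no gene name, so the rule did not count them. PSMC2, an ATPase, held 1146, 856, 193 and 163 reads, 81.3% of them in the 3'UTR, and its main site had 818, 543, 52 and 21 reads. PSMC4, another ATPase of the ring, held 216, 1679, 305 and 196 reads, 98.0% of them in its short 3'UTR of 459 nt.

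PSMC4 showed the largest gap between the 2 cytoplasms among members with a cluster in both and at least 50 reads together. Its RPM was 6.94-fold (6.02 to 8.04) higher in KRT19 KO than in parental cytoplasm. Unique reads gave 7.15-fold (5.63 to 9.21). In the nuclei the order was the opposite, with KRT19 KO at 0.699 (0.581 to 0.839) of parental. The main site, 82 nt past the stop codon, held 1098 reads in KRT19 KO cytoplasm, 167 in parental nucleus and 196 in KRT19 KO nucleus, and no cluster was listed there in parental cytoplasm. The second site, 24 nt past the stop codon, held 200, 568 and 120 reads and none listed in KRT19 KO nucleus, so the 2 neighbouring sites were missing from different libraries.

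**Figure D3:**
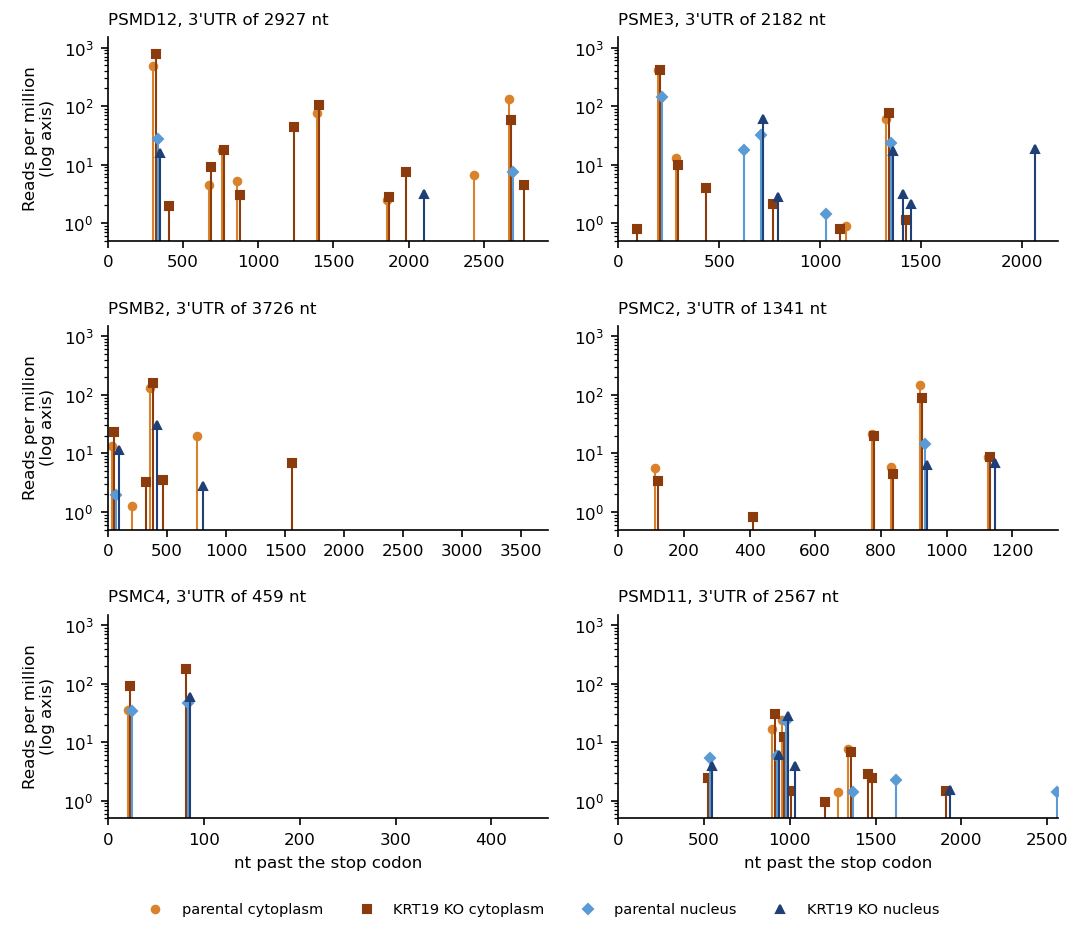
Clusters along the 3'UTRs of 6 proteasome genes, as RPM (log axis) against nt past the stop codon; each stem is 1 merged site in 1 library, and stems of the same site are set slightly apart so that they can be seen. The PSMD12 stems at 324 nt tower over the rest in both cytoplasms, PSMC4 lacks a stem for parental cytoplasm at 82 nt, and PSME3 has stems for the nuclei alone at 702 nt.

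Smaller 3'UTR signals were spread over other groups. PSMG2, a chaperone of core assembly, held 971, 1139, 446 and 462 reads. Its 3'UTR site, 31 nt past the stop codon, had 683, 904, 127 and 87 reads and was present in all 4 libraries. PSMD11, a lid subunit, held 392, 411, 385 and 257 reads, and its 2 neighbouring 3'UTR sites at 918 and 973 nt had 93, 187, 21 and 20 and 133, 76, 81 and 90 reads. The fractions therefore differed at the first of these sites and overlapped at the second. PSMF1, the inhibitor, held 758, 1194, 570 and 437 reads, and 1 site of 423 reads, 2297 nt past the stop codon, was listed in KRT19 KO cytoplasm alone. PSMA7, an alpha subunit, held 56, 91 and 14 reads and no listed cluster in KRT19 KO nucleus, 80.1% of them in the 3'UTR. PSMD7 of the lid held 152, 133, 52 and 36 reads, 51.5% in the 3'UTR and 46.6% in introns. PSMA4, an alpha subunit, held 0, 26, 77 and 19 reads under its name, while 15 clusters without a gene name lay in its annotated 3'UTR with 99, 429, 0 and 23 reads, so its cytoplasmic signal is understated.

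Long genes carried the intronic clusters. The 5 genes with the most held 50.1% of 1347 intron clusters, and over the 45 genes the rank correlation between gene length and intron clusters was 0.82, a description across genes that share libraries. PSMD14, the deubiquitinase of the regulatory particle, spans 103293 nt and held 1071, 1210, 766 and 1070 reads, 93.0% of them in introns. Its intronic site at chr2:162178483-162178533 was present in all 4 libraries with 134, 101, 96 and 113 reads. Scaled to the library these were 24.1, 16.2, 27.1 and 34.7 RPM, lowest in KRT19 KO cytoplasm, which stood at 0.673 (0.515 to 0.878) of parental cytoplasm and at 0.468 (0.354 to 0.617) of KRT19 KO nucleus. PSMD1, a large scaffold subunit, held 834, 641, 952 and 893 reads, 99.2% of them intronic. PSME4, which encodes an activator linked to chromatin and DNA repair, held 788, 559, 890 and 727 reads, 87.1% of them intronic. In RPM PSMD1 and PSME4 were lower in each cytoplasm than in either nucleus, at 150, 103, 269 and 275 and at 142, 89.9, 252 and 224.

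**Figure D4:**
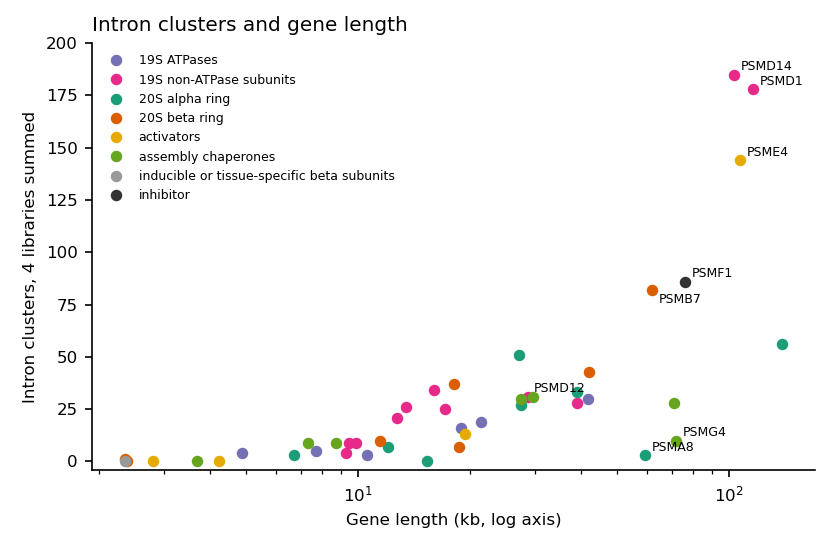
Number of intron clusters over the 4 libraries against gene length (kb, log axis) for the 45 proteasome genes with a cluster, coloured by function. The 5 genes with the most, PSMD14, PSMD1, PSME4, PSMF1 and PSMB7, hold 50.1% of the 1347 intron clusters and lie to the right, while PSMA8 and PSMG4 are long genes with few.

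Among beta subunits, PSMB7, which carries the trypsin-like site, was the intronic counterpart of PSMB2. It held 617, 140, 561 and 457 reads, so KRT19 KO cytoplasm stood below the other 3 libraries. The intronic site at chr9:127126039-127126077 showed the same gap, with 84, 0, 129 and 70 reads, where 0 means that no cluster was listed. Another intronic site, with its start at 127174274, did not, with 57, 55, 76 and 0 reads. PSMB1, without a proteolytic site of its own, held 117, 126, 272 and 122 reads, 97.0% intronic. PSMB4 held 36, 136 and 84 reads and none listed in KRT19 KO nucleus, and all 11 of its clusters were annotated as retained intron. The constitutive proteolytic subunits PSMB5 and PSMB6 held few reads, 61, 55, 20 and 16 for PSMB5 and 0, 12, 0 and 16 for PSMB6. PSMB3 held 43, 6, 15 and 20.

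The alpha ring genes were mostly intronic and held more RPM in the nuclei. Their summed level was 152, 200, 315 and 392 RPM, and relative to the nucleus the cytoplasm stood at 0.482 (0.440 to 0.528) for the parental pair and at 0.511 (0.473 to 0.553) for the KRT19 KO pair. PSMA3 held 201, 483, 333 and 405 reads. PSMA1 held 295, 239, 309 and 370. Its clusters need care: 33 of its 44 sites, with 89.7% of its reads, lay on an overlapping gene of the same strand, COPB1 or the locus ENSG00000256206, and 49.6% of its reads lay outside the annotated span of PSMA1. PSMA5 stood at 14.6, 26.2, 33.4 and 69.5 RPM, while PSMA6 held 118, 179, 181 and 97, and PSMA2 86, 56, 81 and 145. The PSMA2 and PSMA6 sites all overlapped another annotated locus on the same strand, as did 59.1% of the PSMA3 reads, so these reads cannot be told apart from that locus. Of the PSMA2 reads, 53.8% lay outside its annotated span. The summed level of the alpha ring includes all reads on such loci. It leaves out the unnamed PSMA4 3'UTR clusters, which held 99, 429, 0 and 23 reads. PSMA8, the testis form of an alpha subunit, held 5, 9, 0 and 13 reads.

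The remaining regulatory particle genes held fewer reads. PSMD4, a ubiquitin receptor, held 74, 37, 212 and 228 reads, all in introns, with both nuclei above both cytoplasms. PSMD13 had 102, 129, 165 and 301, PSMD6 209, 80, 105 and 173, PSMD3 161, 130, 117 and 38, and PSMD2 64, 68, 61 and 56. PSMD8 held 31, 21, 36 and 10 reads, 42.9% of them in introns and 29.6% in 3'UTRs. Of the ATPases, PSMC6 held 40, 56, 36 and 112 reads and PSMC1 8, 34, 56 and 32, all intronic. PSMC3 held 0, 58, 28 and 53 and PSMC5 9, 11, 11 and 13.

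The assembly chaperones, which help to build the particles and then leave, showed 3 different kinds of contact. PSMG3 was bound almost entirely at 1 site in its 5'UTR, chr7:1608997-1609034, with 238, 272, 42 and 31 reads, both cytoplasms above both nuclei. PSMD9 was bound almost entirely in introns and held 140, 88, 486 and 337 reads, both nuclei above both cytoplasms. All PSMD9 sites also overlapped the locus ENSG00000256950 on the same strand. PSMD10, known as gankyrin, was the reverse of PSMD9: its intronic site at chrX:107329954-107329985 held 77 and 137 reads in the cytoplasms and none listed in the nuclei. Over the whole gene PSMD10 had 114, 239, 8 and 6 reads, 96.7% of them in clusters annotated as intron, although the cytoplasm was the fraction that held them. PSMD5 held 213, 207, 143 and 82 reads, PSMG4 84, 21, 74 and 81, and PSMG1 44, 40, 29 and 59.

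The comparison of KRT19 KO with parental cytoplasm addresses whether the make-up of the RNAs held by cytoplasmic HNRNPK differs once KRT19 is lost. Each value is scaled to its own library, so the ratios here and below compare shares of a library. They do not show the amount of RNA bound or of HNRNPK recovered. Summed over members, KRT19 KO stood at 1.12 times parental (1.10 to 1.14). Without PSMD12 the ratio was 1.05, and for 3'UTR clusters it was 1.35 per 1000000 of all cluster reads and 0.900 when scaled to the reads of that class, so the direction of the sum rests on how the class shares are treated. A minimum of 50 reads in the 2 libraries together left out 8 of the 45 members here, and 11, 7 and 8 in the comparisons that follow. Of the 37 members kept, 5 were at least 2-fold higher in KRT19 KO (13.5%), against 20.6% of the 9378 genes tested, and 4 at least 2-fold lower (10.8%), against 22.4%. Both member shares were under those of all genes. PSMC4, PSMB4 and PSMA3 were higher by 6.94, 3.37 (2.32 to 5.02) and 2.15 (1.82 to 2.54) fold. PSMC3 and PSME1 had no listed cluster in parental cytoplasm and passed the minimum through KRT19 KO alone. PSMA4, with 26 reads in KRT19 KO cytoplasm and none listed in parental cytoplasm, was left out by the minimum. With its unnamed 3'UTR clusters added, PSMA4 held 455 and 99 reads, and KRT19 KO was higher by 4.10-fold (3.296 to 5.15). PSMB2 stayed under 2-fold with its own, at 1.32 (1.23 to 1.42). Parental was higher by 4.93-fold (4.10 to 5.97) for PSMB7, 4.48 (2.75 to 7.61) for PSMG4, 2.93 (2.25 to 3.83) for PSMD6 and 2.24 (1.49 to 3.42) for PSMD4. PSMG4 held 14 and 17 unique reads in KRT19 KO and parental cytoplasm, and KRT19 KO stood at 0.498 (0.227 to 1.07) of parental in unique reads. With a minimum of 50 unique reads, 28 members were kept, and 5 were higher and 3 lower, against 20.3 and 19.0% of all genes, with PSMC3, PSME1, PSMD4 and PSMG4 no longer among them. The median log2 ratio was −0.06 over members and −0.08 over all genes tested.

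In the nuclei the summed ratio of KRT19 KO to parental was 1.01 (0.982 to 1.04), an interval that includes 1. Of 34 members tested, 5 were at least 2-fold higher in KRT19 KO (14.7%, against 14.4% of all genes) and 4 at least 2-fold lower (11.8%, against 18.2%). The first share equals the background, and the second is below it. PSMC6 was higher by 3.38-fold (2.31 to 5.07), PSMB2 by 2.25 (1.92 to 2.63), PSMG1 by 2.21 (1.40 to 3.58), PSMA5 by 2.08 (1.66 to 2.62) and PSMC3 by 2.06 (1.28 to 3.38). With its unnamed 3'UTR clusters added, PSMB2 stood at 1.69 (1.47 to 1.94) and was no longer past 2-fold. PSMA4 was higher in parental by 3.73-fold (2.23 to 6.52), PSMD3 by 2.83 (1.95 to 4.20) and PSMB1 by 2.05 (1.65 to 2.56), and PSMB4 had 84 reads in parental nucleus and no listed cluster in KRT19 KO. PSMB4 therefore passed the minimum through parental nucleus alone. The PSMA4 gap also fell short of 2-fold once its unnamed 3'UTR clusters were added, at 1.69 (1.14 to 2.52). Counted in unique reads with a minimum of 50, 1 of 21 members was higher and 0 were lower, against 8.58 and 12.7% of 4652 genes. The 1 called was PSMD13, at 2.78-fold (1.77 to 4.48) in unique reads and 1.98 in reads. None of the members called in reads was called again, in part because of the minimum. PSMC6, for one, rested on 17 and 8 unique reads in KRT19 KO and parental nucleus. The ratio of KRT19 KO to parental lay on opposite sides of 1 in cytoplasm and nucleus, with both intervals leaving out 1, for 8 of 29 members in reads (27.6%, against 19.2% of 7195 genes) and for 1 of 29 in unique reads (3.45%, against 7.98%), PSMC4.

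**Figure D5:**
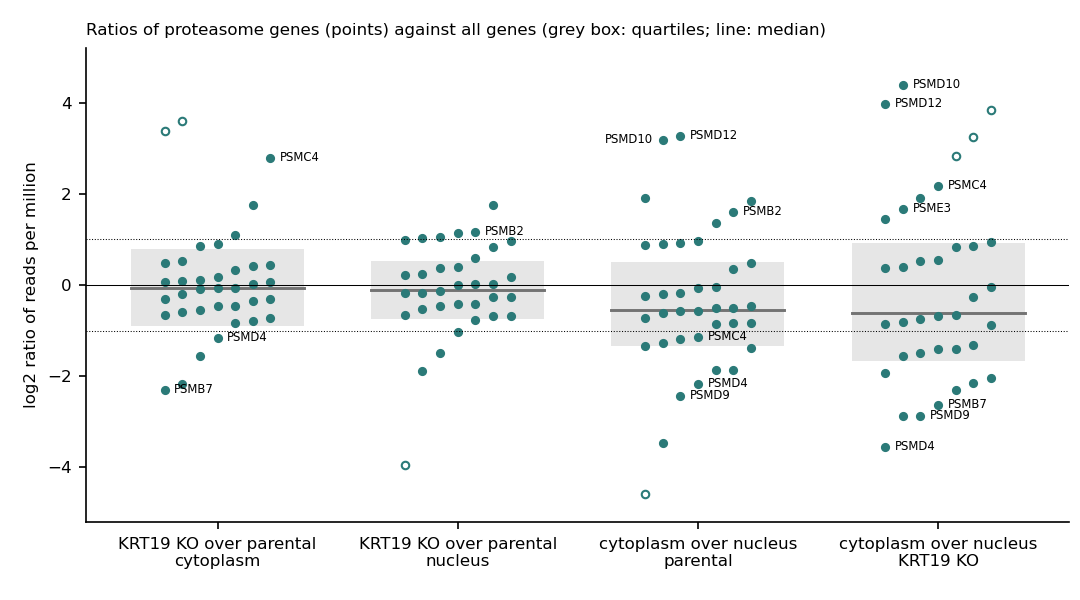
Log2 ratio of RPM for each proteasome gene with at least 50 reads in the 2 libraries compared (points; open points have a library without a listed cluster, set to 5 reads), with the quartiles (grey box) and median (line) of all genes; dotted lines mark 2-fold. The cytoplasm over nucleus medians of all genes lie at −0.54 and −0.62, and PSMD12 and PSMD10 are the filled points at the top of both.

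In the comparison of the fractions, the sum over members and the typical member lay on different sides. The summed level of members was 1.17 times higher in cytoplasm than in nucleus in parental cells (1.14 to 1.20) and 1.29 times in KRT19 KO cells (1.26 to 1.32). Both ratios turned without PSMD12, to 0.908 and 0.936. Reads in 3'UTR clusters, per 1000000 of all cluster reads, were 4.19 and 6.71 times higher in cytoplasm, whereas over all genes they were 5.92 and 8.73 times higher. Scaled to the reads of the class, the members therefore stood at 0.708 and 0.769 in 3'UTRs, and at 0.832 and 0.919 in introns, so the direction of the sum rested both on PSMD12 and on the scaling. By gene, most members lay on the nuclear side, and the median log2 ratio was −0.51 for the parental pair and −0.65 for the KRT19 KO pair. Over all genes tested the medians were −0.54 and −0.62, close to those of the members. In parental cells 6 of 38 members were at least 2-fold higher in cytoplasm (15.8%, against 18.8% of all genes) and 11 at least 2-fold lower (28.9%, against 34.8%). In KRT19 KO cells these were 9 of 37 (24.3%, against 24.4%) and 13 (35.1%, against 41.2%). With the median of all genes set to 0, the counts became 11 higher and 6 lower in parental cells, against 25.5 and 20.4% of all genes, and 15 higher and 8 lower in KRT19 KO cells, against 32.6 and 26.2%.

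PSMD12, PSMC2, PSMA7, PSMD10 and PSMG3 were at least 2-fold higher in cytoplasm in both cell lines, and the first 3 of them were bound chiefly in 3'UTRs. PSMD10 stood at 9.08-fold (4.46 to 21.5) and 20.8-fold (9.44 to 57.4), PSMC2 at 3.78 (3.25 to 4.43) and 2.75 (2.32 to 3.27), and PSMG3 at 3.61 (2.59 to 5.14) and 3.73 (2.66 to 5.36), beside PSMD12 above. PSMA7 was 2.55-fold (1.40 to 4.96) higher in parental cytoplasm and had 91 reads against no listed cluster in KRT19 KO cells. PSMB2 reached 3.03-fold (2.64 to 3.50) and 1.47-fold (1.32 to 1.63) in parental and KRT19 KO cells, or 2.57 and 2.01 with its unnamed 3'UTR clusters, and PSME3 1.89 (1.76 to 2.05) and 3.20 (2.92 to 3.52). On the nuclear side in both cell lines, the nucleus exceeded the cytoplasm by 4.50-fold (3.44 to 5.94) and 11.8-fold (8.29 to 17.2) for PSMD4, 5.45 (4.51 to 6.62) and 7.32 (5.77 to 9.36) for PSMD9, 2.54 (1.97 to 3.28) and 4.46 (3.62 to 5.52) for PSMD13, and 2.29 (1.71 to 3.07) and 2.65 (2.16 to 3.26) for PSMA5. PSMC4 changed sides, with the nucleus 2.22-fold (1.86 to 2.65) above the cytoplasm in parental cells and the cytoplasm 4.48-fold (3.86 to 5.22) above the nucleus in KRT19 KO cells. PSMB4 did so as well, from 3.66-fold (2.45 to 5.57) higher in parental nucleus to 136 reads against no listed cluster in KRT19 KO cells. In parental cells alone, PSMC1, PSMB1, PSMA3, PSMA6 and PSMA4 were also at least 2-fold lower in cytoplasm, and in KRT19 KO cells alone, PSMG4, PSMB7, PSMA2, PSMD6, PSMC6, PSMA1, PSMG1, PSMD1 and PSME4 were, while PSME1 was higher. Without a listed cluster in the other fraction, PSMA7, PSMB4 and PSME1 in KRT19 KO cells passed the minimum through cytoplasm alone, and PSMA4 in parental cells through nucleus alone. PSMA4 left the list of members lower in cytoplasm with its unnamed 3'UTR clusters, at 0.819 (0.602 to 1.12) in parental cells, and reached 5.67 (4.13 to 7.97) in KRT19 KO cells. The difference between the cell lines in these ratios was not tested. PSMD10 held 30, 107, 2 and 1 unique reads, and PSMC1 1 and 11 in parental cytoplasm and nucleus. With a minimum of 50 unique reads, PSMA7, PSMD10, PSMA4, PSMB4, PSMC1 and PSMD13 were no longer called in parental cells, and PSME4 was called lower. In KRT19 KO cells PSMA7, PSME1, PSMC6, PSMG1 and PSMG4 were no longer called, while PSMD3 and PSMD7 were called higher and PSMB1 lower.

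The sequence of member clusters resembled that of all clusters. C and T together made up most bases, with 25.7, 25.9, 27.2 and 27.5% C and 36.8, 33.9, 35.7 and 35.9% T, while G made up 6.51 to 7.86%. The consensus [U/A][U/C/A]CCC, searched on the sense strand, occurred in 28.2% (24.2 to 32.6), 27.4% (23.3 to 31.9), 34.9% (30.6 to 39.5) and 29.98% (25.9 to 34.4) of member clusters. Among all clusters the shares were 29.8, 30.1, 32.9 and 33.6%, inside the intervals of the members. In windows of the same length 100 nt to either side of the member clusters the consensus occurred in 10.5, 12.2, 11.4 and 11.3%. Over 3'UTR clusters of members it was present in 16 of 58, 23 of 80, 12 of 25 and 13 of 31, or 27.6, 28.8, 48 and 41.9%. Among all 3'UTR clusters the shares were 24.8, 25.3, 34.3 and 34.6%, also higher in the nuclei. A match is a description of letters and does not mark a binding site by itself.

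Few intronic clusters of the members lay next to an exon, with a larger share in the nuclei than over all genes. Of 365 clusters in parental nucleus that could be placed, 24 (6.58%, 4.46 to 9.60) lay within 100 nt upstream of an exon, against 2.82% over all genes, and in KRT19 KO nucleus 22 of 373 (5.90%, 3.93 to 8.77) did, against 3.11%. In the cytoplasms the shares were 3.03% (1.65 to 5.49) and 3.13% (1.59 to 6.04), against 1.88 and 2.15%. The downstream side of exons was much the same. Within 100 nt downstream of an exon lay 6.85% in parental nucleus and 6.70% in KRT19 KO nucleus, against 2.44 and 2.60% over all genes. In parental and KRT19 KO cytoplasm 3.94 and 3.52% did, against 1.98 and 2.34%. The distance to the next exon was shorter in members, with a median of 1741 nt in parental nucleus against 5494 nt over all genes, and its part in the result was not tested.

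Between 25.95 and 35.2% of the member clusters of a library recurred in the library it was compared with, over the 4 comparisons made, and the difference from all genes was not tested. Of KRT19 KO cytoplasmic clusters 144 of 409 (35.2%, 30.7 to 39.95) shared at least 1 nt of the same strand with a parental cytoplasmic one, against 31.4% over all genes, and of the parental ones 145 of 443 (32.7%), against 26.4%. In the nuclei 135 of 447 KRT19 KO clusters (30.2%, 26.1 to 34.6) were shared, against 21.5%, and 135 of 438 parental ones (30.8%), against 20.02%. Clusters of at least 100 reads recurred more, 22 of 28 from KRT19 KO cytoplasm and 15 of 17 from parental cytoplasm in the other cytoplasm. Between the nuclei 7 of 7 from KRT19 KO and 5 of 8 from parental recurred. Between the fractions 12 of 17 cytoplasmic and 5 of 8 nuclear ones did in parental cells, and 17 of 28 and 4 of 7 in KRT19 KO cells. The share over all genes at this depth was not computed. Sites found in 1 library were shallow, with a median of 11 reads in 3'UTRs and 8 in introns, against 380 and 117 for sites found in all 4, so the absence of a cluster often lay near the minimum of 5 reads.

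The share of reads that showed a T-to-C change was 57.8, 54.9, 65.9 and 72.8% over members and 66.4, 59.6, 72.9 and 76.7% over all clusters, lower for the members in each library. Within member 3'UTR clusters the share was 52.0, 51.3, 56.1 and 58.0%, and within intron clusters 67.5, 64.0, 67.7 and 74.8%. Over all genes the 3'UTR shares were 53.4, 55.1, 65.8 and 69.3% and the intron shares 74.3, 68.0, 73.9 and 78.5%, so members were lower in both classes. In the cytoplasmic 3'UTRs this leaned on the main PSMD12 site, where the share was 41.5% over all libraries. That site held 2730 of 10606 member 3'UTR reads in parental cytoplasm and 4846 of 16008 in KRT19 KO cytoplasm. The share of each library without that site was not computed. In coding clusters the members were higher, at 66.5, 69.3, 84.7 and 82.8% of 430, 701, 98 and 99 reads, against 63.9, 55.3, 63.7 and 52.2% over all genes.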

How the data were processed

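HNRNPK-bound RNA was measured by PAR-CLIP in 4 libraries of MDA-MB-231 cells, 1 for each combination of parental or KRT19 KO cells and cytoplasm or nucleus. The 17 RNA-seq samples were not analysed here.

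The authors demultiplexed the reads with bcl2fastq 2.20.0, collapsed identical sequences, removed adapters and molecular identifiers, and ran PARpipe, whose PARalyzer step called the clusters. The aligner is not given in the sources used here. The methods name hg19 and the submitters' processing notes name hg38. The deposited counts of reads and unique reads per cluster are raw, with no normalization, and no cluster held fewer than 5 reads. The deposited fraction of reads with a T-to-C change, the score of the cluster mode and the log10 conversion specificity, all made by the authors' pipeline, were not used, and 0 further columns were used.

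Members and lists were chosen with earlier results of these data known. Reads were divided by all cluster reads of the library, per 1000000. Ratios carry exact (Clopper-Pearson) and shares Wilson 95% intervals. A gene was counted as higher or lower past a fold of 2 with at least 50 reads in the 2 libraries together. A library without a listed cluster was set to 5 reads for that count, and no fold was printed. Clusters that overlapped on a strand were merged into sites, and the positions were read against GRCh37 with GENCODE release 44 lifted to that build. Genes named were the first 30 by reads among the 31 with at least 200, those past 2-fold and those without a cluster, and the remaining members were added. Sites named were those with the most reads per functional group, and some sites are not reported here. Because they exceeded 30 nt, a window of 30 nt was printed, chosen after the lengths were seen. No site had 100 reads in all 4 libraries. Calls, intervals, overlaps and the motif search were tested on simulated data. Python 3.11.15, numpy 2.4.6, pandas 2.3.3, scipy 1.17.1 and pysam 0.24.0 were used. Alternatives were a minimum of 10 reads per cluster, unique reads, weighting by reads, leaving out PSMD12, 3'UTR clusters alone, a median of 0 over all genes and another motif; intron clusters alone, unnamed clusters in a member's 3'UTR and unique reads for opposite directions were added after the data were seen.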

Additional observations from a re-analysis of the deposited data

Results flagged for a closer look

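For 8 members the ratio of KRT19 KO to parental lay above 1 in one fraction and below 1 in the other, with counting intervals that leave out 1 in both. These were 8 of the 29 members with a cluster in all 4 libraries and enough reads (27.6%), against 19.2% of 7195 genes. In unique reads 1 of the 29 met the same rule, PSMC4, against 7.98% of the genes. With 1 library per condition the difference between the fractions was not tested. The values that follow are the log2 ratio in cytoplasm minus that in nucleus. PSMC4 stood out most, at 3.31, from 6.94-fold in cytoplasm and 0.699 in nucleus. PSMA6 was at 1.22 (1.35 and 0.583), PSME3 at 0.76 (1.07 and 0.633), PSMF1 at 0.75 (1.41 and 0.834) and PSMD12 at 0.70 (1.34 and 0.827). In the other direction, PSMD6 was at −2.39 (0.342 and 1.79), PSMA2 at −1.74 (0.582 and 1.95) and PSMA1 at −0.85 (0.724 and 1.30). In unique reads PSME3 in cytoplasm stood at 0.978 and PSMF1 in nucleus at 1.02, each on the other side of 1, and for the other 5 at least 1 interval included 1. All PSMA2 and PSMA6 reads and most PSMA1 reads lay on overlapping loci of the same strand, whose part was not tested.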

How the results depend on the processing

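No paired analysis was possible because each condition has 1 PAR-CLIP library and the RNA-seq samples were not analysed. Of 79 values under alternative settings, 40 stayed within their 95% interval or, for counts, within 1.5 times, 32 moved further and 7 turned direction, and the causes were not tested unless stated. The 3'UTR share of clusters in parental and KRT19 KO cytoplasm was 18.9 and 24.4% over clusters of at least 10 reads, and weighted by reads it was 59.7, 72.0, 16.6 and 13.9% in the order of the libraries above. The summed ratio of KRT19 KO to parental cytoplasm was 1.08 in unique reads, 1.05 without PSMD12 and, scaled to the reads of the class, 1.32 in introns and 0.900 in 3'UTRs, where it turned. Per 1000000 of all cluster reads these classes gave 0.715 and 1.35. In the nuclei it was 0.961 in unique reads, and 0.829 in 3'UTRs and 1.19 in introns by class, around a value whose interval includes 1. The ratio of cytoplasm to nucleus turned in parental and KRT19 KO cells without PSMD12 (0.908 and 0.936) and, scaled to the reads of the class, in 3'UTRs (0.708 and 0.769) and introns (0.832 and 0.919), where all cluster reads as the base gave 4.19 and 6.71 and 0.526 and 0.355. Past 2-fold in unique reads, 1 of 21 members was higher and 0 lower in KRT19 KO nucleus, against 8.58 and 12.7% of all genes, where fewer genes reach the minimum. The 1 was PSMD13, which was not past 2-fold in reads. With the median of all genes at 0, 11 members were higher and 6 lower in parental cytoplasm over nucleus (25.5 and 20.4% of all genes), and 15 and 8 in KRT19 KO cells (32.6 and 26.2%). Unnamed 3'UTR clusters, added after the data were seen, ended the 2-fold calls of PSMA4 and PSMB2 between the nuclei. Between the cytoplasms the same clusters placed PSMA4 past 2-fold, at 4.10 (3.296 to 5.15) in KRT19 KO over parental cells. The motif was in 33.9, 34.6 and 40.1% of clusters of at least 10 reads in the first 3 libraries. The narrower motif U[U/C]CCC was in 18.1, 16.6, 21.9 and 19.7%. Depth limits what is read from a missing cluster, since no cluster under 5 reads is listed.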

Other observations

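Genes outside the rule that work with the proteasome were described from a list of ubiquitin shuttles, associated enzymes, assembly factors and transcription regulators, 20 of which had a cluster. In cytoplasm 6 of 19 with enough reads were at least 2-fold higher in KRT19 KO than in parental cells and 2 at least 2-fold lower, against 20.6 and 22.4% of all genes, and in the nuclei 1 and 3 of 19 were, against 14.4 and 18.2%. The following were named after their values were seen. The ubiquitin shuttle UBQLN2 had 47, 570, 15 and 24 reads, UBQLN4 8, 178, 53 and 55, and DDI2, the protease that activates the proteasome transcription factor NFE2L1, 142, 878, 176 and 37, so KRT19 KO cytoplasm held the most reads of each. NFE2L1 itself had 118, 289, 47 and 50. The unfoldase VCP had 78, 328, 114 and 126 reads, and the core assembly factor POMP 267, 193, 211 and 71.

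In the annotated 3'UTRs of 3 members lay 38 clusters without a gene name, with 1587 reads, or 5.38% of the reads in named member 3'UTR clusters. The deepest, 250 reads in KRT19 KO cytoplasm at chr15:78843863-78843894, lay 2592 nt past the stop codon of PSMA4. Of the 44 annotated proteasome pseudogenes, clusters on them numbered 3, with 21 reads in all.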
